A study of Mus musculus with 2 samples.

Results

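*Cd3g*, *Nkg7*, *Gzmb*, *Il7r* and *Il12a* are genes known from T cells, natural killer (NK) cells, lymphoid progenitors and antigen-presenting cells, and they were described here in sorted cells grown from mouse embryonic explants. The 5 genes were picked, out of 11691 genes measured, because they are lymphoid, cytotoxic or cytokine genes with reads in these cells, so their levels are given below as a description without a test. The cells were of C57/BL6 background and came from concepti of 5 to 7 somite pairs (E8.5). Intraembryonic tissue (Em-Ex) and yolk sac (YS-Ex) were each grown as explants, for 9 to 10 days in the general protocol and 10 days for the sequenced cells, with SCF, IL-3 and FLT3 ligand at 100 ng/ml each, and both were sorted for a CD31+CD45+c-Kit+CD41- phenotype and loaded at 8600 cells per library for droplet-based single-cell RNA sequencing. Both libraries therefore share the strain, stage, cytokines and gate, and they differ in the tissue of origin. There was 1 library per tissue, made from sorted cells of cultured explants with no mark of the single conceptus, so differences between libraries have no replicate check and no p-value is given. The intervals below are 95% intervals that cover counting error only.

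CD3γ, the product of *Cd3g*, is an invariant chain of the T cell receptor complex. NKG7 is a membrane protein of cytotoxic granules, and granzyme B, the product of *Gzmb*, is a serine protease released from such granules by cytotoxic T cells and NK cells and also made by some mast cells. The α chain of the interleukin-7 receptor, encoded by *Il7r*, carries survival signals in lymphoid progenitors and T cells, whereas *Il12a* encodes the p35 subunit shared by the cytokines IL-12 and IL-35. IL-3 and SCF, which were both in the explant medium, are the cytokines classically used to grow mast cells.

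The sequences upstream of 3 of these genes are shown because *Cd3g*, *Gzmb* and *Il12a* had their highest Em-Ex levels in 3 different clusters of cells, described below. Each is the 250 bases before the annotated start in RefSeq (GRCm38.p6), written 5′ to 3′ on the strand of the gene, with capitals for the letters found by a search of both strands for motifs of blood cell factors. These were AGATAA and TGATAA for the family of Gata2, TGTGGT for RUNX factors, CAGCTG as an E-box and GAGGAAG for PU.1.

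Cd3g, chr9:44980432-44980681, minus strand: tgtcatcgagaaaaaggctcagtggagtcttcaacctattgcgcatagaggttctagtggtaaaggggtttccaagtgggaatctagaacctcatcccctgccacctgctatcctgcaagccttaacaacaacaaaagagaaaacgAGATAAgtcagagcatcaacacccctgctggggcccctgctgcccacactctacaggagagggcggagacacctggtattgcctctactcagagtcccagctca

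Gzmb, chr14:56262335-56262584, minus strand: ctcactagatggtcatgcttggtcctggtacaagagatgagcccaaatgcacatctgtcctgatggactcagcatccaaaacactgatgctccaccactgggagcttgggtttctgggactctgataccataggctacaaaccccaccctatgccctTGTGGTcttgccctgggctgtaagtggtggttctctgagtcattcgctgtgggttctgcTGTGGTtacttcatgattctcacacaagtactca

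Il12a, chr3:68690394-68690643, plus strand, the first of 2 annotated starts: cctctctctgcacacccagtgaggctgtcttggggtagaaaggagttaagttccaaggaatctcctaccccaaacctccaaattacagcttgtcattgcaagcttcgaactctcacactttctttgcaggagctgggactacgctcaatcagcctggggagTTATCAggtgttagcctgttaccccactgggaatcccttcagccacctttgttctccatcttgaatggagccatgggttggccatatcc

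The *Cd3g* stretch held AGATAA once, from 104 to 99 bases before the start. The *Gzmb* stretch held TGTGGT in 2 places, from 93 to 88 and from 34 to 29 bases before the start. The *Il12a* stretch held TGATAA once on the opposite strand, printed as TTATCA, from 89 to 84 bases before the start. None of these letters is rare. Over 32851 promoter stretches of the same length, AGATAA was found in 9.99%, TGATAA in 7.94%, TGTGGT in 14.05%, CAGCTG in 13.001% and GAGGAAG in 10.6%. A match describes the letters and is no evidence of a bound factor.

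In GRCm38, *Cd3g* lies on the minus strand at chr9:44969572-44980431, *Nkg7* on the plus strand at chr7:43437073-43438249, *Gzmb* on the minus strand at chr14:56258838-56262260, *Il7r* on the minus strand at chr15:9505788-9530176 and *Il12a* on the plus strand at chr3:68690644-68698547. No annotated gene overlapped any of the 5. Transcripts of *Il7r* shared 31 of 4663 windows of 50 bases (0.665%) with transcripts of other genes, and the other members shared 0.

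The Em-Ex library held 3504 barcodes, of which 3071 cells were kept (median 12341 transcripts, counted as unique molecular identifiers, UMIs). In the YS-Ex library 2087 of 3037 barcodes were kept (median 11729 UMIs). Cells were divided by *Cpa3*, the mast cell carboxypeptidase, at 40 UMIs per 10000. The Cpa3-high cells numbered 2200 in Em-Ex (71.6%) and 1946 in YS-Ex (93.2%), and the Cpa3-low cells 871 and 141. Beside *Cpa3*, which made the division, 13 of 14 other mast cell genes were at least 2-fold higher in the Cpa3-high cells of Em-Ex, against 7.93% of all genes. Of 5 basophil genes other than *Cpa3*, 4 were higher in the same cells, among them *Mcpt8* and *Il4*, so these lists did not set mast cells apart from basophils. The same list was not at 0 in the Cpa3-low cells, where *Cma1*, a mast cell chymase, stood at 2434 UMIs per 1000000 UMIs (CPM) against 16943 CPM, so low *Cpa3* alone did not mark a cell as a progenitor. Within these classes, 284 Em-Ex and 87 YS-Ex cells had between 30 and 50 UMIs of *Cpa3* per 10000, close to the limit. The libraries shared 35 barcodes, and 33 Em-Ex and 32 YS-Ex cells with such a barcode were among those kept. Those shared Em-Ex cells held 15 *Cd3g*, 26 *Nkg7*, 164 *Gzmb*, 7 *Il7r* and 21 *Il12a* UMIs. A gene was listed in a library when it had a UMI in at least 30 barcodes, and a gene below that is listed at 0.

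The 5 genes did not share 1 carrier. *Gzmb* was mainly a gene of Cpa3-high cells, which held 92.1% of its Em-Ex UMIs with 64.0% of all UMIs. *Il12a* was a gene of Cpa3-low cells, with 2.21% of its UMIs in the Cpa3-high cells. *Cd3g* was found in both, with 75.0% of its UMIs in Cpa3-high cells, and *Nkg7* (51.4%) and *Il7r* (54.1%) were spread between them below the share of all UMIs. In YS-Ex, where Cpa3-high cells held 93.4% of all UMIs, they held 97.2% of the *Gzmb*, 91.6% of the *Nkg7*, 87.6% of the *Cd3g* and 74.8% of the *Il7r* UMIs.

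In Em-Ex, 1 of the 5 members (*Gzmb*) was at least 2-fold higher in Cpa3-high than in Cpa3-low cells, against 7.93% of all 11450 genes compared, and 1 of 5 (*Il12a*) was at least 2-fold lower, against 18.1% of all genes. In YS-Ex, 1 of 4 (*Gzmb*) was higher, against 4.02% of 10966 genes, and 2 of 4 (*Cd3g* and *Il7r*) were lower, against 10.7%. The *Cd3g* call sat on the 2-fold line and rested on the 0.5 counts added to each sum, and it was lost in 9 alternatives, among them *Cpa3* limits of 20 (-0.40 on the log2 scale) and 80 (-0.83), the mean over cells (-0.66) and thinning (-0.69). The members were picked with these differences known, so nothing is read from the counts.

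*Cd3g* stood at 42.4 CPM (40 to 44.9) in the Cpa3-high cells of Em-Ex and at 25.1 CPM (22.7 to 27.7) in the Cpa3-low cells. In YS-Ex it stood at 36.1 CPM (33.8 to 38.5) in Cpa3-high and 72.2 CPM (60.2 to 85.7) in Cpa3-low cells. The order of the classes was therefore opposite in the libraries, with a ratio of Cpa3-high to Cpa3-low of 1.69 (1.50 to 1.90) in Em-Ex and 0.5001 (0.415 to 0.606) in YS-Ex. The Em-Ex ratio turned to the other side, to -0.45 on the log2 scale from 0.75, when the progenitors called cluster 6 below were left out. A UMI of *Cd3g* was found in 18.0% of Em-Ex Cpa3-high, 12.7% of Em-Ex Cpa3-low, 17.0% of YS-Ex Cpa3-high and 19.9% of YS-Ex Cpa3-low cells. At 3000 UMIs per cell these shares were 8.21%, 5.26%, 7.09% and 10.4%.

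*Nkg7* was lower in Cpa3-high cells of both libraries. It stood at 34.4 CPM (32.2 to 36.7) against 58.0 CPM (54.3 to 62.0) in the Cpa3-low cells of Em-Ex, a ratio of 0.593 (0.541 to 0.651). In YS-Ex the levels were 54.2 CPM (51.4 to 57.2) and 69.9 CPM (58.2 to 83.3), a ratio of 0.776 (0.645 to 0.939), and this last ratio moved to the other side of 1, to 0.037 on the log2 scale, with the *Cpa3* limit at 80. The share of cells with a UMI was 13.7% and 32.4% in Em-Ex, and 23.0% and 19.9% in YS-Ex. Thinned to 3000 UMIs the Em-Ex shares were 6.32% and 11.4%, and the YS-Ex shares 9.83% and 8.82%. The median depth was 11245 UMIs in the Cpa3-high and 16935 in the Cpa3-low cells of Em-Ex, and 11809 and 10227 UMIs in those of YS-Ex.

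*Gzmb* stood at 214 CPM (209 to 219.6) in the Cpa3-high cells of Em-Ex and at 32.6 CPM (29.8 to 35.6) in the Cpa3-low cells. The YS-Ex levels were 122 CPM (118 to 126) and 49.8 CPM (39.98 to 61.3). The ratio was 6.57 (5.99 to 7.21) in Em-Ex and 2.45 (1.98 to 3.06) in YS-Ex, and both moved with the *Cpa3* limit. On the log2 scale they were 4.63 and 3.31 at a limit of 20, 2.71 and 1.28 at 40, and 0.94 and 0.78 at 80, where neither reached 2-fold. Its UMIs were concentrated in few cells. A UMI was found in 28.6% of the Em-Ex Cpa3-high and 20.6% of the YS-Ex Cpa3-high cells (17.2% and 12.1% when thinned), 1 cell held up to 170 UMIs, and 65 Em-Ex cells, 8.89% of those with a UMI, held 50% of the *Gzmb* UMIs of that library.

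*Il7r* was lower in the Cpa3-high cells of both libraries. Its level was 11.4 CPM (10.2 to 12.8) against 17.3 CPM (15.3 to 19.5) in Em-Ex and 14.3 CPM (12.9 to 15.9) against 68.2 CPM (56.7 to 81.5) in YS-Ex. The ratio was 0.661 (0.559 to 0.781) in Em-Ex and 0.210 (0.171 to 0.260) in YS-Ex. A UMI was found in 11.4% and 13.7% of the Em-Ex classes and in 12.0% and 23.4% of the YS-Ex classes, or 3.83%, 5.15%, 4.92% and 13.4% when thinned.

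*Il12a* had the sharpest division. In Em-Ex it stood at 0.950 CPM (0.620 to 1.39) in Cpa3-high and 74.7 CPM (70.5 to 79.2) in Cpa3-low cells, 78.7-fold lower in the former (53.4 to 121). A UMI was present in 21 of 2200 Cpa3-high cells (0.955%) and in 307 of 871 Cpa3-low cells (35.2%), or 0.233% and 14.5% when thinned. In YS-Ex the gene was listed at 0.

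**Figure D1:**
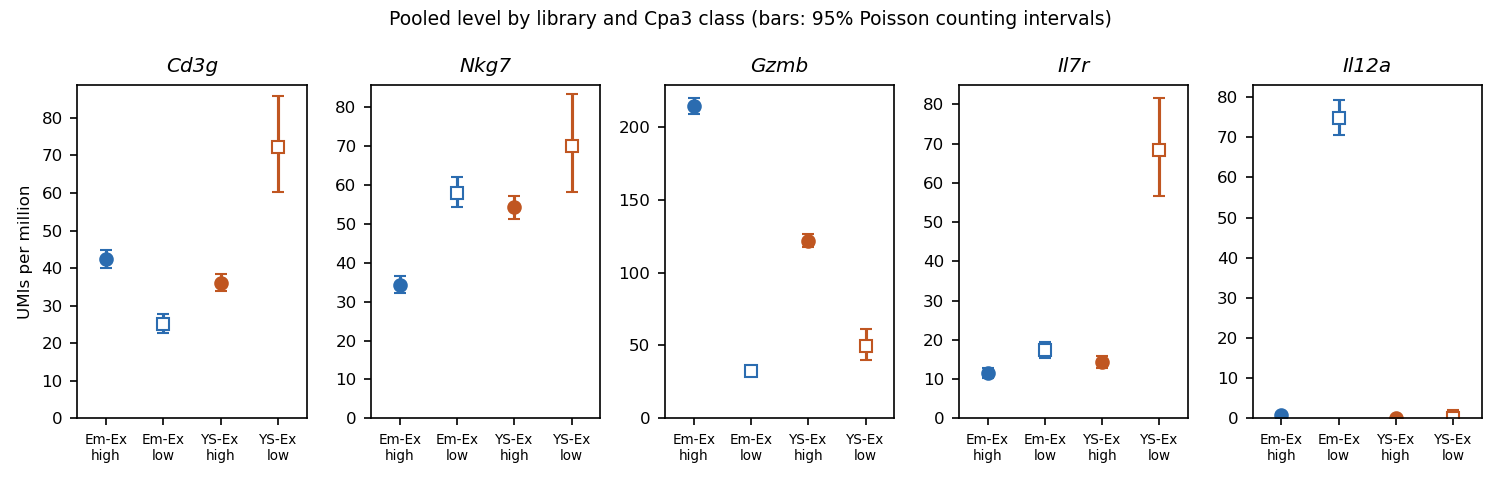
Level of each gene in UMIs per 1000000 in Cpa3-high and Cpa3-low cells of the 2 libraries, on a linear axis for each gene, with 95% counting intervals and 1 library per tissue. *Gzmb* is highest in the Em-Ex Cpa3-high cells at 214, *Il12a* reaches 74.7 in the Em-Ex Cpa3-low cells against 0.950 in the Cpa3-high cells, and the order of the classes for *Cd3g* is opposite in the libraries.

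Free RNA can give a UMI in a cell that does not express a gene, so cells that should lack the members were read as the background. These were 27 cells led by *Actc1*, *Acta2* and *Dcn*, genes of stroma and muscle (cluster 12, median 6357 UMIs), and 24 cells with hemoglobin genes among their leading genes (cluster 13, median 21996 UMIs). *Nkg7* and *Il7r* had 0 UMIs in both, which allows a share of up to 11.1% of the 27 and 12.5% of the 24 cells (3 counts). The *Il7r* shares of Cpa3-high cells given above are no higher than the latter limit, so these few cells cannot set them apart from background. *Cd3g* and *Il12a* were each found in 1 of 27 cells (3.70%), with 4 UMIs for *Cd3g* and 1 for *Il12a*, and in 0 of 24. *Gzmb* was found in 0 of 27 and in 2 of 24 cells (8.33%). The share of Cpa3-high cells with *Il12a* (0.955%) lay within the interval of the 1 of 27 cells (0.0937% to 19.0%). These few cells cannot set it apart from background, and it is not read as expression.

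Across bands of *Cpa3* the members changed at different points. *Il12a* stood at 103 CPM in Em-Ex cells with under 5 *Cpa3* UMIs per 10000, at 10.6 CPM from 5 to 40, just outside the limit, at 1.33 CPM from 40 to 80, just inside it, and at 0.764 CPM above 80. *Gzmb* went the other way, from 2.25 CPM to 101, 233 and 205 CPM. *Cd3g* was lowest in the first band (7.42 CPM) and highest in the second (64.9 CPM), with 45.4 and 40.9 CPM above the limit. The lowest Em-Ex values of *Gzmb* and *Cd3g* were thus in the cells with least *Cpa3*, 455 of 538 of which belonged to cluster 6 below. *Nkg7* ran 52.4, 70.6, 32.4 and 35.4 CPM, and *Il7r* 18.0, 15.7, 9.06 and 12.6 CPM. In YS-Ex *Gzmb* had 0 UMIs in the 40 cells of the first band, then 77.9, 87.2 and 127 CPM, and *Cd3g* 43.4, 88.4, 52.7 and 33.7 CPM.

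**Figure D2:**
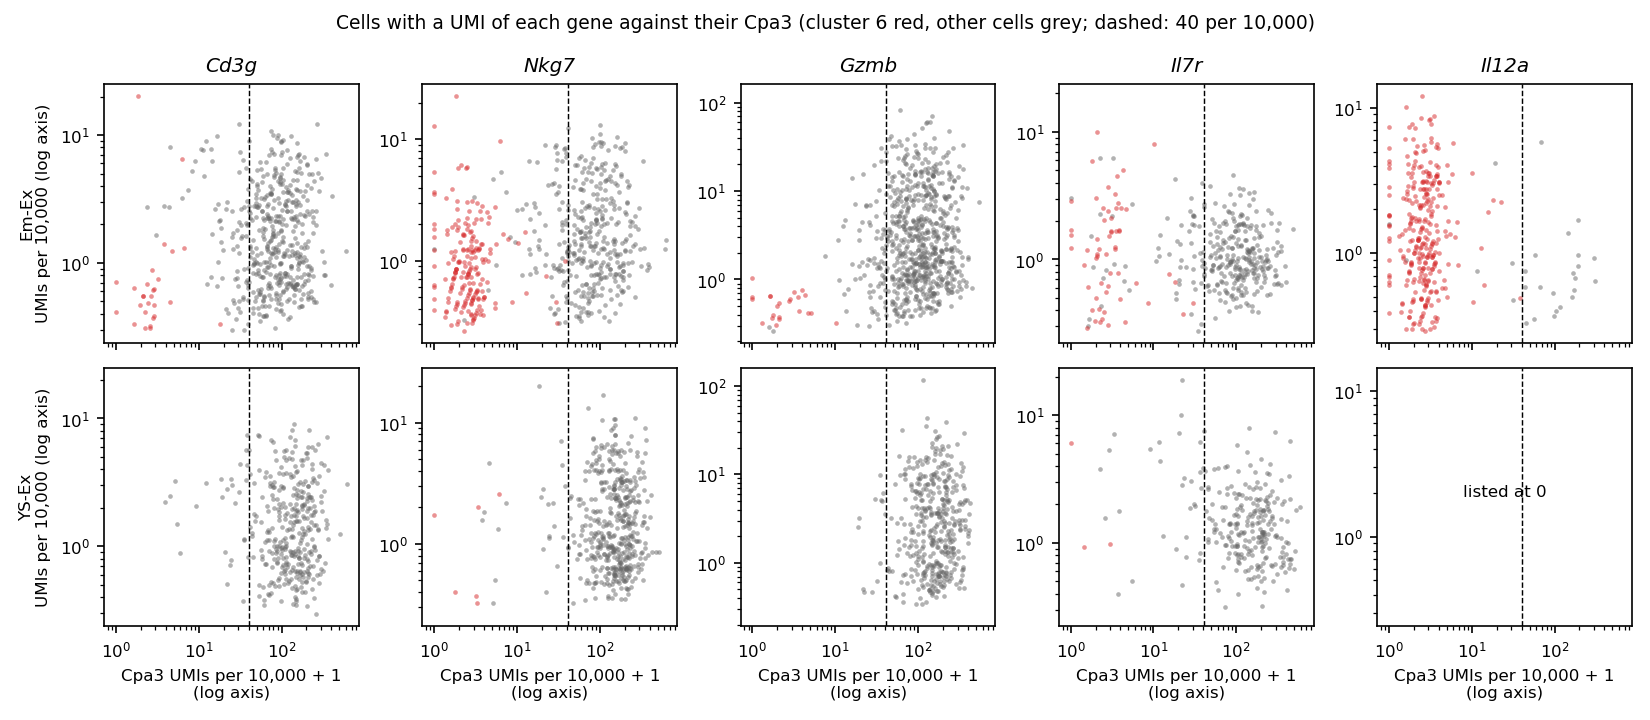
Each point is a cell with at least 1 UMI of the gene. It is placed by its *Cpa3* level (UMIs per 10000, plus 1) and its level of the gene (UMIs per 10000), both on log axes. The limit of 40 is drawn and cells of cluster 6 are in red. *Il12a* cells lie mostly left of the limit, with 21 at or right of it, and are mostly red, whereas *Gzmb* cells lie mostly right of it.

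To see which cells carried each member, cells of both libraries were clustered on variable genes from which the 5 members had been removed. This gave 13 clusters, called here by number and leading genes. Cluster 6 was led by *Mpo*, a granule enzyme of neutrophil progenitors, *Hlf*, a transcription factor of stem cells, and the homeobox genes *Hoxa9* and *Hoxa7*. It held 477 Em-Ex cells, 54.8% of the Cpa3-low cells, but 17 YS-Ex cells, 8 of which had a barcode found in both libraries, and 0% of its cells were Cpa3-high. *Cd3g* was itself among the 10 leading genes of cluster 7, although it had not been used to make the clusters. A cluster set against the rest is a description and not a test.

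Cluster 6 carried *Il12a*. It held 1138 of the 1175 Em-Ex UMIs (96.9%) and a UMI was present in 301 of its 477 cells (63.1%), at 116 CPM (109 to 123). The remaining Em-Ex Cpa3-low cells stood at 1.98 CPM, a 58.6-fold difference (32.6 to 118). Cluster 6 also held 31.2% of the *Nkg7* and 27.6% of the *Il7r* UMIs of Em-Ex, with 23.0% of all UMIs and 15.5% of the cells. Its *Nkg7* level, 58.3 CPM, was close to the 57.6 CPM of the other Em-Ex Cpa3-low cells, and its *Il7r* level was 16.3 against 19.1 CPM. *Gzmb* was found there as 23 single UMIs in 23 cells (4.82%, median depth of the cluster 20602 UMIs). This share is no higher than the 8.33% of the few cells of cluster 13 and is not read as expression. *Cd3g* had 6.52 CPM in cluster 6 against 57.9 CPM in the other Cpa3-low cells, and 2 cells held 34 of its 64 UMIs (53.1%).

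Outside cluster 6, *Cd3g* and *Gzmb* of the Em-Ex Cpa3-low cells were mostly in mast clusters with less *Cpa3*, whereas *Il7r* had 43 UMIs (16.2% of the class) in cluster 11, led by myeloid genes, and 27 in cluster 1. Cluster 5, led by the mitotic genes *Aspm*, *Hmmr* and *Cenpf*, held 31.6% of the *Cd3g* and 48.1% of the *Gzmb* UMIs of the Em-Ex Cpa3-low cells. Cluster 7 held 29.8% of their *Cd3g*, and cluster 8, led by the S phase genes *Ccne2* and *Rrm2*, 24% of their *Gzmb*. In YS-Ex, cluster 5 held 68.2% of the *Cd3g*, 51.2% of the *Nkg7* and 69.7% of the *Gzmb* UMIs of the Cpa3-low cells. The Cpa3-low class thus held different cells in the libraries, and a ratio of Em-Ex to YS-Ex within it compares different mixtures.

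*Cd3g* and *Nkg7* peaked together in cluster 7, led by *Gzma*, *Car1*, *Parm1* and *Cd3g*, of which 85.5% of the cells were Cpa3-high. In its 163 Em-Ex cells *Cd3g* stood at 197 CPM (179 to 217) and in its 175 YS-Ex cells at 143 CPM (129 to 157), with a UMI in 58.3% and 64.0% of cells. *Nkg7* stood there at 131 CPM (117 to 148) and 127 CPM (114 to 141). The height of this peak depended on the clustering, since the highest *Cd3g* level of a cluster over both libraries was 167 CPM here, 92.6 CPM without library correction and 265 CPM at a resolution of 2. Of the *Cd3g* UMIs the cluster held 27.7% in Em-Ex, with 5.07% of all UMIs, and 38.6% in YS-Ex, with 10.4% of all UMIs. In cluster 3, led by *Tnni3*, *Eepd1* and the cytokine gene *Il13*, *Cd3g* stood at 90.8 CPM in Em-Ex but 37.6 CPM in YS-Ex, beside 36.2 and 38.5 CPM over all cells. *Nkg7* stood there at 51.7 and 84.3 CPM, beside 42.9 and 55.3 CPM over all cells. *Gzma* itself, a granzyme gene, was listed at 0 in Em-Ex and stood at 10.3 CPM in the YS-Ex Cpa3-high cells, so its lead in cluster 7 came from YS-Ex.

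*Gzmb* had its highest Em-Ex levels in the cycling clusters 8 and 5, with cluster 4, led by *Gm9758*, *Kdelr3* and *Hapln1*, close behind at 231 CPM (219 to 244). Cluster 8 held 227 Em-Ex cells, 46.7% of which had a UMI, and stood at 345 CPM (328 to 362), and cluster 5 stood at 249 CPM (236 to 263). These clusters together held 45.8% of the Em-Ex *Gzmb* UMIs with 23.4% of all UMIs. In YS-Ex the highest level was in cluster 7, at 288 CPM (268 to 308), where a single cell held 146 of 808 UMIs (18.1%), followed by cluster 4 at 182 CPM (164 to 201), while clusters 8 and 5 stood at 159 and 106 CPM. In cluster 11, led by the myeloid genes *S100a9*, *S100a8*, *Mmp12* and *Mrc1* (52 cells, median 14458 UMIs), *Cd3g* and *Gzmb* had 0 UMIs, which allows a share of up to 5.77% of cells.

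*Il7r* was carried by other clusters. Among mast cells, cluster 1, led by the receptor genes *Mrgprb1*, *Mrgprx2* and *Mrgprb2*, known from connective tissue mast cells, had levels of 28.6 CPM (24.6 to 33.0) among Em-Ex cells and 42.0 CPM (37.2 to 47.3) among YS-Ex cells. It held 50.2% and 68.0% of the *Il7r* UMIs of the Cpa3-high cells, while *Cd3g* was at 13.7 and 5.52 CPM there. Cluster 11 had an Em-Ex level of 70.4 CPM (51.0 to 94.9) and a YS-Ex level of 155 CPM (105 to 219.9), the latter from 5 cells. Cluster 10, led by the hypoxia-responsive genes *Ankrd37*, *Egln3* and *Bnip3*, had an Em-Ex level of 24.4 CPM and a YS-Ex level of 198 CPM, and 1 YS-Ex cell held 23.9% of the latter UMIs. The high *Il7r* level of YS-Ex Cpa3-low cells was made up of cluster 10 (32.8% of the UMIs), cluster 11 (25.4%) and cluster 1 (23.0%).

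**Figure D3:**
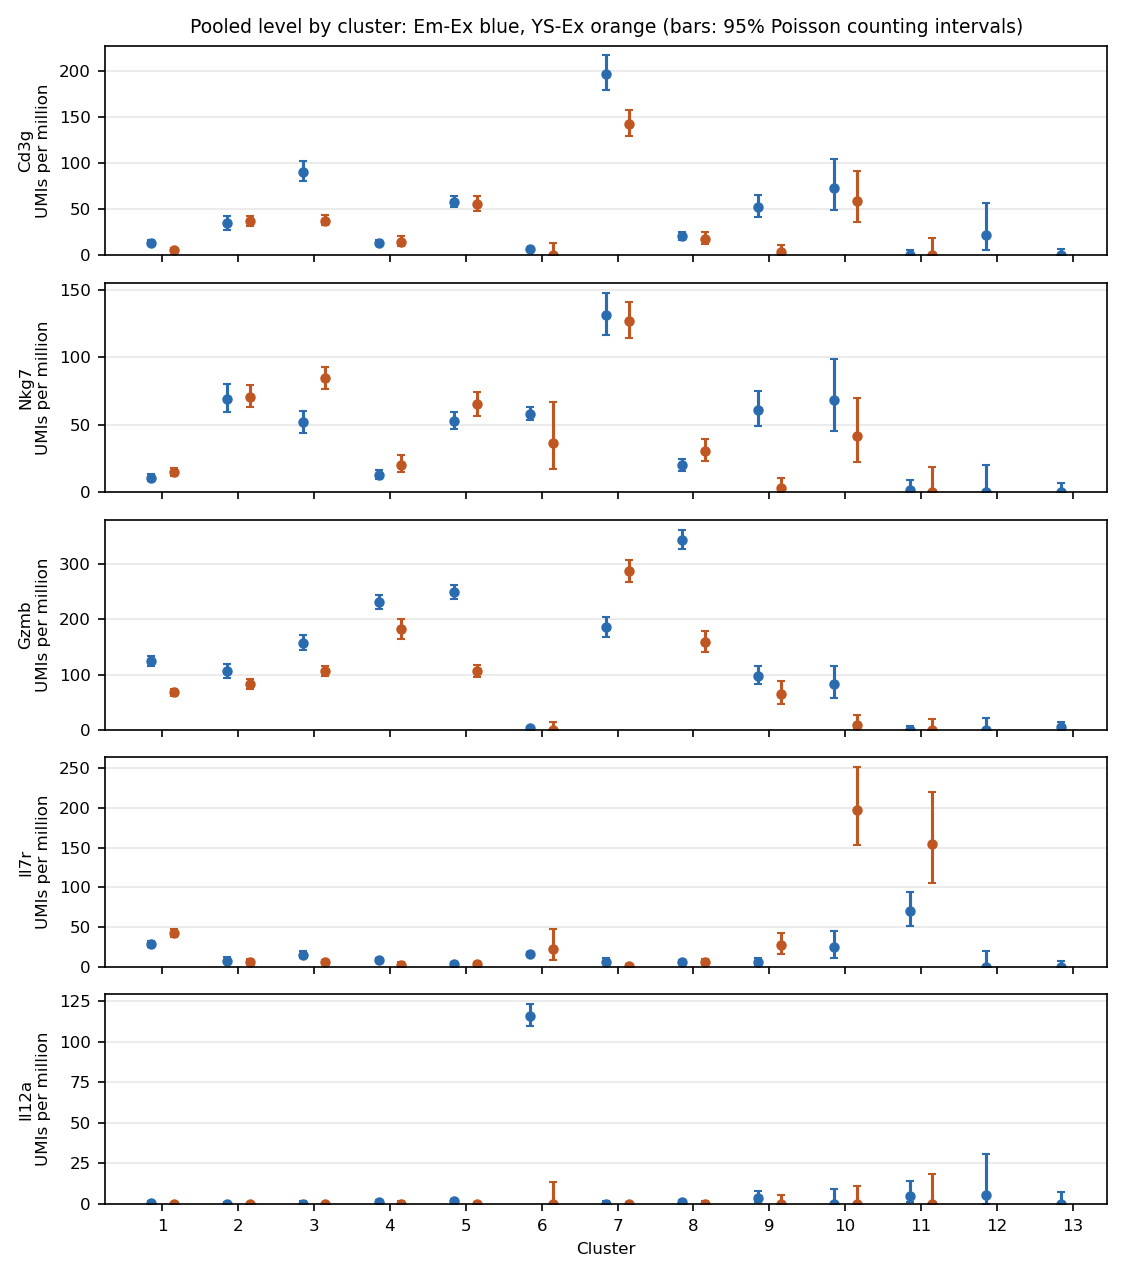
Level of each gene in UMIs per 1000000 by cluster in Em-Ex and YS-Ex, with 95% counting intervals, for clusters with at least 10 cells in a library. *Cd3g* and *Nkg7* peak in cluster 7, *Il12a* in cluster 6, *Gzmb* in cluster 8 of Em-Ex and cluster 7 of YS-Ex, and *Il7r* in clusters 10 and 11.

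**Figure D4:**
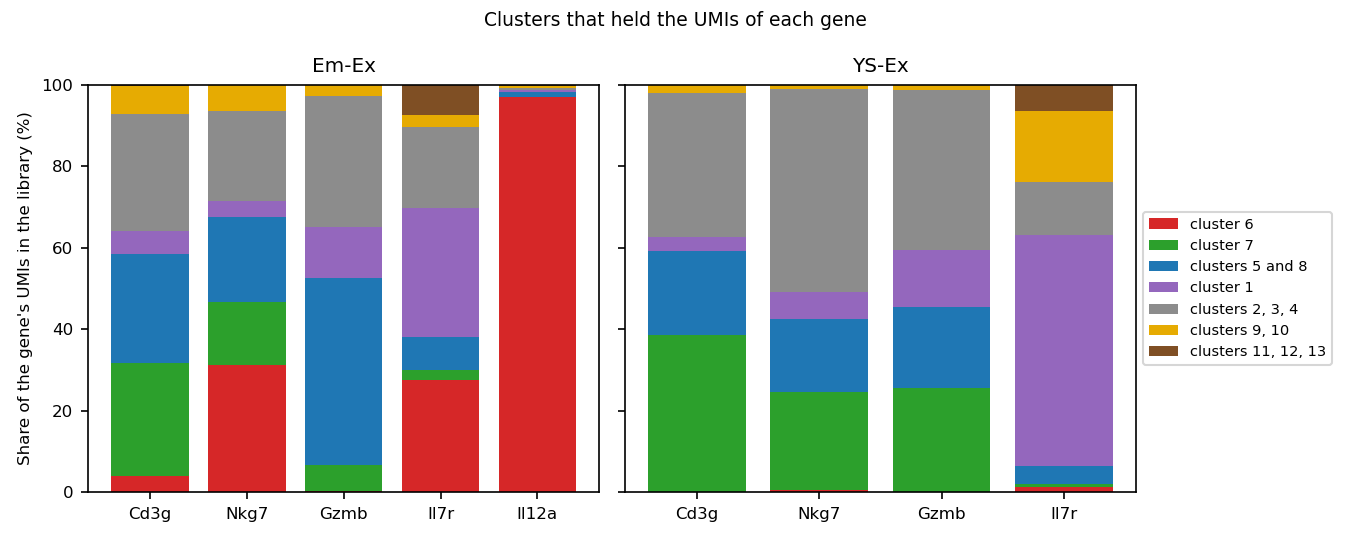
Share of the UMIs of each gene in each library that fell in cluster 6, cluster 7, clusters 5 and 8, and the other clusters, in percent, with bars summing to the whole. Cluster 6 holds 96.9% of the *Il12a* but 0.362% of the *Gzmb* UMIs of Em-Ex.

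Co-expression was described as the number of cells with a UMI of both genes over the number that independent detection would give. *Cd3g* and *Nkg7* were found together more often than that. In Em-Ex Cpa3-high cells 116 cells held both against 54.3 (ratio 2.14, 1.76 to 2.56), and in YS-Ex Cpa3-high cells 138 against 76.0 (1.82, 1.52 to 2.14). Computed within 5 equal groups of cells by depth the ratios were 1.90 and 1.46, and at 3000 UMIs per cell 2.52 and 2.25. Within cluster 7 the ratio was 1.23 (0.906 to 1.63) in Em-Ex and 1.11 (0.837 to 1.44) in YS-Ex, both with intervals that cover 1.

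In Cpa3-high cells *Gzmb* was nearer to independent detection. Its ratio with *Cd3g* was 1.16 (0.973 to 1.38) in Em-Ex and 1.35 (1.09 to 1.65) in YS-Ex Cpa3-high cells, and with *Nkg7* 1.22 (0.998 to 1.48) and 1.19 (0.982 to 1.44). In the same cells *Il7r* was found with *Gzmb* and *Cd3g* less often than independent detection gives. Its ratio with *Gzmb* was 0.588 (0.423 to 0.794) in Em-Ex and 0.498 (0.319 to 0.741) in YS-Ex Cpa3-high cells, and with *Cd3g* 0.687 (0.467 to 0.975) and 0.402 (0.230 to 0.653). With *Nkg7* the *Il7r* ratio was 0.877 (0.592 to 1.25), an interval that covers 1, and 0.558 (0.377 to 0.797). In Em-Ex Cpa3-low cells *Cd3g* with *Gzmb* stood at 2.00 (1.31 to 2.93) and *Cd3g* with *Nkg7* at 1.39 (1.03 to 1.83), the latter at 2.32 when thinned, but outside cluster 6 at 1.56 (1.02 to 2.29) and 2.01 (1.41 to 2.78). In YS-Ex Cpa3-low cells the ratios were 2.71 (1.09 to 5.59) and 2.88 (1.64 to 4.67), or 1.75 and 1.53 within 5 groups of depth. *Il7r* with *Cd3g* stood at 1.25 (0.754 to 1.956) and with *Il12a* at 1.07 (0.783 to 1.44) in the Em-Ex Cpa3-low cells.

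Among Em-Ex Cpa3-low cells, *Il12a* was found with *Cd3g* in 17 cells against 39.1 (0.435, 0.253 to 0.696), or 0.226 when thinned to 3000 UMIs. Within cluster 6 the ratio with *Cd3g* was 0.962 (0.560 to 1.54). *Cd3g* and *Il7r* were together in 9 cells of cluster 6 against 3.46 (2.60, 1.19 to 4.93). No cell had a UMI of all 5 genes. The share with none was 45.6% and 29.3% of Em-Ex Cpa3-high and Cpa3-low cells, and 45.8% and 48.9% of those of YS-Ex.

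**Figure D5:**
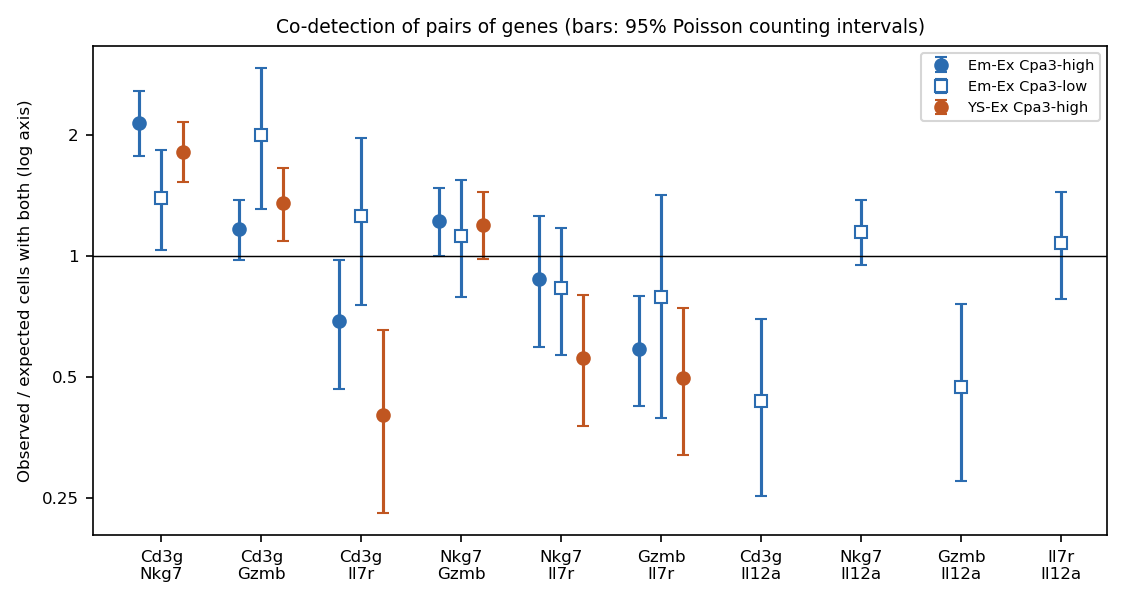
Cells with a UMI of both genes divided by the number given by independent detection, with 95% counting intervals, for pairs with at least 10 expected cells in a group. *Cd3g* with *Nkg7* stands at 2.14 and 1.82 in the Cpa3-high cells, and *Il7r* with *Gzmb* at 0.588 and 0.498.

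The difference of the members between the libraries depended on the class of cells compared. Over all cells the ratio of Em-Ex to YS-Ex was 0.941 (0.869 to 1.02) for *Cd3g*, 0.776 (0.725 to 0.832) for *Nkg7*, 1.27 (1.22 to 1.33) for *Gzmb* and 0.756 (0.669 to 0.855) for *Il7r*. None of these 4 reached 2-fold, against 5.13% of 10725 genes higher and 10.3% lower. Among Cpa3-high cells the ratios were 1.18 (1.08 to 1.28), 0.634, 1.76 (1.68 to 1.83) and 0.797, again with none of 4 at 2-fold, against 1.77% and 11.9% of genes. Among Cpa3-low cells they were 0.348, 0.830 (0.687 to 1.01), 0.655 (0.522 to 0.830) and 0.254, where 2 of 4 (*Cd3g* and *Il7r*) were at least 2-fold lower, against 16.9% of 10652 genes, and 0 of 4 were higher, against 6.56%. The *Cd3g* call (-1.53 on the log2 scale) was lost at a *Cpa3* limit of 80 (-0.87), as a mean over cells (-0.78), when thinned (-0.80) and without cluster 6 (-0.56). Without cluster 6, which was almost absent from YS-Ex, the *Gzmb* ratio of the Cpa3-low cells was above 1, at 0.54 on the log2 scale, and it was above 1 in 5 other alternatives (0.028 to 0.53).

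Within clusters *Gzmb* was the member that kept its direction most often. Of 9 clusters with at least 20 cells in each library, *Gzmb* was higher in Em-Ex in 8, with intervals that leave out 1, and lower in cluster 7 (0.646, 0.572 to 0.729). *Nkg7* was lower in Em-Ex in 5 and higher in 1, *Cd3g* was higher in 4 and lower in 0, and *Il7r* was higher in 3 and lower in 3. The 1 higher cluster of *Nkg7* was cluster 9, led by *Mcpt1* and *Mcpt2*, where 88 Em-Ex UMIs stood against 2 in YS-Ex. *Cd3g* stood at 76 against 2 there, with 61.8% of the Em-Ex UMIs in 5 cells. The clusters of a library share that library and are not replicates.

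For *Il12a* the libraries and the number of cluster 6 cells cannot be told apart. The gene had a UMI in 377 of 3504 Em-Ex barcodes (10.8%), and its listing at 0 in YS-Ex allows at most 29 of 3037 barcodes (0.955%). Cluster 6 held 17 kept YS-Ex cells, fewer than the 30 barcodes needed, and barcodes that did not pass the cell filters were not clustered.

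The partners of each gene were read from lists of the pathway or cell type, in Em-Ex Cpa3-high against Cpa3-low cells and by the same 2-fold measure. The median over all 11450 genes was -0.27 on the log2 scale. Of 22 genes of the T cell receptor complex and its signalling, 5 were analysed. The adaptor gene *Lat*, also known from mast cell signalling, stood at 311 CPM in Cpa3-high against 91.4 CPM. *Lck* and *Cd28*, a T cell kinase and a costimulatory receptor, were higher in Cpa3-low cells, at 6.11 against 0.146 CPM and 4.49 against 0.548 CPM, and both were listed at 0 in YS-Ex, so that they passed the barcode limit through Em-Ex alone. *Cd3g* was within 2-fold. Its neighbours *Cd3d* and *Cd3e* were not analysed here.

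Of 18 cytotoxic granule genes, 8 were analysed. The member *Gzmb*, the proteoglycan gene *Srgn* (4591 against 1077 CPM) and *Ctsc*, whose product activates granzymes (284 against 128 CPM), were higher in Cpa3-high cells, against 7.93% of all genes. *Ctsw* was higher in Cpa3-low cells (4.29 against 0.0730 CPM), against 18.1% of all genes. It was listed at 0 in YS-Ex and so passed the barcode limit through Em-Ex alone, with 97.1% of its Em-Ex UMIs in cluster 6. *Nkg7*, *Lamp1* and *Serpinb9* were within 2-fold, and *Gzma* was not compared. The list median was 0.32 on the log2 scale. *Gzmb* closes a row of 15 genes on chromosome 14 that also holds the mast cell proteases, 8 of them analysed. In Em-Ex, *Cma1* (16943 against 2434 CPM), *Mcpt4* (1006 against 258 CPM), *Mcpt8* (126 against 38.7 CPM) and *Mcpt1* (610.4 against 291 CPM) were higher in Cpa3-high cells like *Gzmb*, and *Mcpt2* was within 2-fold (624 against 496 CPM). In YS-Ex the order was not the same, with *Mcpt1* at 119.6 CPM in Cpa3-high against 781 CPM in Cpa3-low cells and *Mcpt4* at 883 against 926 CPM. *Ctsg*, a neutrophil protease gene of the same row, had the opposite order (0.767 against 25.4 CPM). It too was listed at 0 in YS-Ex and passed through Em-Ex alone, with 93.9% of its Em-Ex UMIs in cluster 6.

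Of 11 genes of the IL-7 receptor pathway, 10 were analysed and 9 were within 2-fold, among them *Il7r*, *Il2rg*, the common γ chain (114 against 64.6 CPM), and *Crlf2*, the partner of IL-7Rα in the TSLP receptor (94.3 against 58.0 CPM). The cytokine gene *Il7* was higher in Cpa3-high cells, at 3.07 against 0.846 CPM. Of 14 genes of the IL-12 family, 10 were analysed. Beside *Il12a*, which was picked for this order, 4 of 9 were higher in Cpa3-low cells, against 18.1% of all genes. These were *Ebi3*, which encodes the other subunit of IL-35 (27.3 against 9.97 CPM), *Il6st*, *Stat3* and *Stat4*. *Ebi3* had a UMI in 213 of the 477 cluster 6 cells and was not confined to them, since 50.7% of its Em-Ex UMIs lay there. *Il12b*, which encodes the other subunit of IL-12, was not analysed here.

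Of 13 B lymphoid genes, 5 were analysed, and all 5 (*Cd79b*, *Ebf1*, *Vpreb1*, *Rag2* and *Dntt*) were higher in the Em-Ex Cpa3-low cells, against 18.1% of all genes, and listed at 0 in YS-Ex. They passed the limit of 30 barcodes through Em-Ex alone, where cluster 6 held 67.7% to 100% of their UMIs, so nothing is read from the 5 of 5. Of 13 genes of NK and innate lymphoid cells, 4 were analysed, with *Klrd1*, *Ccl5* and *Cd7* higher in Cpa3-low cells, against 18.1% of all genes. *Klrd1* and *Cd7* were listed at 0 in YS-Ex and likewise passed through Em-Ex alone, with 96.9% and 73.0% of their UMIs in cluster 6. Markers of other cells were counted too, although a gate on CD45 and against CD41, the product of *Itga2b*, should leave out stromal cells and megakaryocytes. Of these, 6 of 7 neutrophil progenitor, 7 of 12 macrophage, 5 of 5 dendritic, 6 of 8 erythroid, 2 of 4 megakaryocyte and 3 of 3 stromal genes were higher in Cpa3-low cells, against 18.1% of all genes. Of the genes analysed, 4 dendritic, 3 stromal, 2 neutrophil progenitor, 2 erythroid and 2 megakaryocyte ones were listed at 0 in YS-Ex. They so passed the barcode limit through Em-Ex alone. The basophil genes went the other way, as did the megakaryocyte gene *Itga2b*, at 22.9 against 4.88 CPM. Their part in the levels of the members was not tested.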

How the data were processed

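The deposited data were raw UMI counts per gene and cell barcode for both libraries, which per the submitters' processing notes were made with Cell Ranger 2.0.1 (bcl2fastq 2.19.1.403, mm10). The authors' table listed a gene in a library only where at least 30 barcodes held it. Cells with 1000 to 5000 genes and at most 5% of UMIs from 13 mitochondrial genes were kept. No doublet caller was run, so doublets were treated only by the upper gene limit. Levels are UMIs summed over cells per 1000000, with exact 95% Poisson, binomial or conditional binomial intervals, and fitted ratios add 0.5 counts. Thinned shares are exact expectations at 3000 or 6000 UMIs. Clusters came from 2000 variable genes without the members, mutual nearest neighbour correction between the libraries, 100 components, 20 neighbours and Leiden (leidenalg 0.10.2, scanpy 1.11.5, scikit-learn 1.9.0, scipy 1.17.1) at resolution 1. Genes named beside the members were leading cluster genes, genes of the lists and, for each member, the 5 of highest correlation over Em-Ex cells. The members, lists and limits were chosen with earlier results of these data known. On simulated cells with Poisson counts, 600 per class, 94% of 200 changed genes were recovered within 0.25 log2. The simulation lacked the concentration in few cells seen for *Gzmb*, and the YS-Ex Cpa3-low class held fewer cells. The 94% is therefore no measure of accuracy for the members.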

Additional observations from a re-analysis of the deposited data

Results flagged for a closer look

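In 3 cases a member went in opposite directions in 2 groups. *Cd3g* was higher in Cpa3-high than in Cpa3-low cells of Em-Ex (0.75 on the log2 scale) and lower in those of YS-Ex (-1.005). *Cd3g* was likewise higher in Em-Ex than in YS-Ex among Cpa3-high cells (0.23) and lower among Cpa3-low cells (-1.53). *Gzmb* was higher in Em-Ex among Cpa3-high cells (0.81) and lower among Cpa3-low cells (-0.62). The difference was not tested in any of these, since there was 1 library per tissue. The last value was above 0 in 5 alternatives that kept cluster 6, at 0.028 without cell filters, 0.075 without the upper gene limit, 0.53 at a *Cpa3* limit of 80, 0.27 as a mean over cells and 0.22 when thinned. Without cluster 6, an alternative chosen after seeing the data, the Em-Ex ratio of *Cd3g* was -0.45 and the *Gzmb* ratio between the libraries among Cpa3-low cells was 0.54, so that these 2 no longer went in opposite directions.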

How the results depend on the processing

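No paired analysis was possible because there was 1 library per tissue, and no library could be left out. Of 319 alternative values for 57 results, 243 stayed within the counting interval, 68 left it, and another 8 changed the sign of a ratio whose interval left out 1. The sign also changed in 6 of the former, all for ratios whose interval covered 1 (*Cd3g* over all cells and *Nkg7* among Cpa3-low cells, between the libraries). Ratios are on the log2 scale, and leaving out cluster 6 was chosen after seeing the data. For Cpa3-high over Cpa3-low in Em-Ex, *Cd3g* (0.75) was 0.94 without the upper gene limit, 1.24 and 0.33 at *Cpa3* limits of 20 and 80, 0.45 as a mean over cells, 0.44 when thinned and -0.45 without cluster 6. *Nkg7* (-0.75) was -0.57 and -0.45 at those limits. *Gzmb* (2.71) was 2.19 without cell filters, 2.53 at 10% mitochondrial UMIs, 2.33 without the upper limit, 4.63 and 0.94 at 20 and 80, 2.28 as a mean, 2.27 thinned and 1.31 without cluster 6. *Il7r* (-0.60) was -0.18 at 80, and *Il12a* (-6.27) was -1.10 without cluster 6. In YS-Ex, *Cd3g* (-1.005) was -0.40 at 20, -0.66 as a mean and -0.69 thinned, *Nkg7* (-0.37) was 0.037 at 80, -0.045 as a mean and -0.076 thinned, *Gzmb* (1.28) was 3.31 and 0.78 at 20 and 80, 1.80 as a mean and 1.75 thinned, and *Il7r* (-2.25) was -1.46 at 80. For Em-Ex over YS-Ex, *Cd3g* (-0.09) was 0.16 as a mean, 0.15 thinned and 0.21 without cluster 6, *Nkg7* (-0.37) was -0.53 without cluster 6, *Gzmb* (0.34) was 0.42 at 10%, 0.45 as a mean, 0.45 thinned and 0.70 without cluster 6, and *Il7r* (-0.40) was -0.58 without filters. *Gzmb* among Cpa3-low cells (-0.62) was 0.028 without filters, 0.075 without the upper limit, 0.53 at 80, 0.27 as a mean, 0.22 thinned and 0.54 without cluster 6. The share ratios of Cpa3-high over Cpa3-low thinned to 3000 and 6000 UMIs were -0.85 and -0.88 for *Nkg7* (-1.24) and 1.80 and 1.71 for *Gzmb* (1.29) in Em-Ex, -1.45 and -1.49 for *Il7r* in YS-Ex (-0.96), and -5.96 at 3000 for *Il12a* in Em-Ex (-5.21). Thinned co-detection in Em-Ex Cpa3-low cells was 2.32 for *Cd3g* with *Nkg7* (1.39), 0.226 for *Cd3g* with *Il12a* (0.435) and 0.711 for *Nkg7* with *Il12a* (1.15). In YS-Ex Cpa3-high cells *Cd3g* with *Nkg7* (1.82) was 1.46 within 5 groups of depth and 2.25 thinned. The level in the highest cluster, without library correction and at resolutions 0.5 and 2, was 92.6, 126 and 265 CPM for *Cd3g* (167) and 99.1, 108 and 173 CPM for *Nkg7* (129), and at resolutions 0.5 and 2 it was 235 and 454 CPM for *Gzmb* (292). The cause was not tested. Shares of cells with a UMI depend on depth, and those of the Cpa3 classes were also given at 3000 UMIs per cell.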

Other observations

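Cluster 6 held UMIs of myeloid, B lymphoid and NK genes, and the members divided among its cells. The genes set beside the members here were chosen after values of the cluster were seen, 65 pairs were counted, and ratios are cells with both genes over the number independent detection gives in its 477 Em-Ex cells. *Il7r* was found with *Ebf1*, a transcription factor of the B lineage, in 25 cells against 7.79 (3.21, 2.08 to 4.74), with *Rag2*, a recombinase subunit, in 11 against 3.34 (3.29, 1.64 to 5.89), and with *Klrd1*, an NK receptor gene, in 16 against 3.96 (4.04, 2.31 to 6.56). With *Cd79b*, found in 150 of the 477 cells and so in more than any other B lymphoid gene analysed, the ratio was 1.29 (0.829 to 1.92). It was found with *Mpo* in 19 cells against 37.4 (0.509, 0.306 to 0.794), and its level was 6.16 CPM in cells with *Mpo* and 39.3 CPM in cells without it. *Il12a* had a UMI in 301 of the cells, which holds its ratios closer to 1 than those of *Il7r*. It was found with *Rag2* in 25 of 27 cells (ratio 1.47, 0.950 to 2.17) and with *Dntt* in 28 of 34 (1.31, 0.867 to 1.89), with *Mpo* at 0.908 (0.778 to 1.05) and with *Elane*, a neutrophil protease gene, in 16 cells against 27.1 (0.590, 0.337 to 0.958). Its level was 301 CPM in cells with *Dntt* and 104 CPM in cells without it. By *Klrd1* it was 246 against 107 CPM, although the ratio of cells was 0.990 (0.605 to 1.53). By *Elane* the level was 34.7 against 126 CPM, by *Mpo* 89.4 against 176 CPM and by *Cd79b* 111 against 119 CPM (ratio 1.01, 0.822 to 1.24). The level of *Nkg7* was 195 against 51.5 CPM by *Cd7*, 113 against 52.1 CPM by *Ccl5*, 102 against 54.1 CPM by *Ctsw* and 62.8 against 48.0 CPM by *Mpo*. Detection did not follow these levels, with ratios of 1.56 (0.923 to 2.46) for *Cd7*, 0.792 (0.470 to 1.25) for *Ccl5* and 0.842 (0.481 to 1.37) for *Ctsw*. A UMI of *Nkg7* was found in 32.7% of cells with *Ccl5* and 42.4% of cells without it, and in 34.8% and 42.0% by *Ctsw*. *Nkg7* was found with *Mpo* in 155 cells against 125 (1.24, 1.05 to 1.45), or 1.15 within 5 groups of depth, where the median depth was 22601 UMIs in cells with *Mpo* and 16244 in cells without it.

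*Cd3g* in cluster 6 was found with *Cd7*, a gene of T cells and NK cells, in 12 cells against 1.64 (7.30, 3.77 to 12.8). The 2 cells with the most *Cd3g* had 24 and 10 UMIs of it, 27 and 15 of *Nkg7*, 7 and 16 of *Cd7*, 3 and 49 of *Ccl5* and 7 and 1 of *Il7r*, and both had 0 UMIs of *Gzmb* and *Mpo*, among 11923 and 15364 UMIs. Across 3071 Em-Ex cells, which share 1 library, the level of *Il12a* was most like that of *Mef2c* (Pearson's r = 0.638), *Lsp1* (0.627), *Egfl7* (0.613), *Dusp2* (0.600) and *Bcl11a* (0.599). For the other 4 members the highest correlations ranged from 0.188 for *Il7r* with *Cd52* to 0.303 for *Cd3g* with *Rplp1*, too weak in sparse counts to be read.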
